A study of Rattus norvegicus with 6 samples.

Results

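The 41 genes described here mark hepatic stellate cells or encode the extracellular matrix of the liver, the connective tissue between its cells. They were chosen by symbol: a non-control probe counted when its RefSeq accession belongs to one of the 41 symbols. Probes were found for 37 of the 41 genes, 64 probes in all, among 45877 names with a probe, and no probe was matched to Col5a2, Col4a2, Col6a1 or Col6a3. For 33 of the 37 the brightest probe was brighter than background throughout 1 group or both, by the scanner's own flag, and 27642 genes in all met this filter. Liver RNA came from male Sprague-Dawley (Crl:CD(SD)) rats, an outbred stock, obtained at 5 weeks of age. Treated animals were dosed with the organophosphate tris(2-chloroethyl) phosphate (TCEP), used to make plastics and foams less flammable. The daily dose was 400 mg/kg, and the controls received the vehicle, corn oil. Each group held 3 animals with 1 Agilent 1-colour array each. The labels give the length of dosing as 9 weeks in the treatment protocol and as 28 days in the design text of the series. The sample titles also carry the number 28, without a unit. They do not state which length applies, and it is not known here.

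Hepatic stellate cells lie between the hepatocytes and the sinusoids, the capillaries of the liver, and store vitamin A as retinyl esters. After injury they can turn into myofibroblasts, which lose the retinyl esters, express smooth muscle actin and secrete fibrillar collagen. Transforming growth factor beta and platelet-derived growth factor are the best known signals for this change, and the scar that follows is liver fibrosis. Portal fibroblasts, vascular smooth muscle and hepatocytes also make some of the proteins below. In whole liver, fewer cells of a type and less RNA per cell cannot be told apart. The comparison of TCEP with corn oil livers asks for transcript signs of fibrosis.

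All values are log2 of the array's processed signal minus that of the array's 75th percentile, so a value of 0 equals the 75th percentile of the probes of that array, and a difference is the mean of the TCEP arrays minus the mean of the corn oil arrays. The number of arrays limits the precision. The share of the 61657 non-control probes flagged well above background ran between 57.2%, on corn oil replicate 2, and 64.4%. Corn oil replicate 2 was the 1 array of this study on its slide and was scanned 23 days after the others. Another slide carried the TCEP arrays and no control, and its effect and that of the treatment cannot be told apart. All 12 hepatocyte markers examined, albumin (Alb) and transferrin (Tf) among them, were well above background on all 6 arrays. Over all genes, 0 of 27642 passed an adjusted p of 0.05 (limma, Benjamini-Hochberg, 0% called), with 0.291 as the smallest value. Without adjustment, 2543 genes had p under 0.05.

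None of the matrix and stellate cell genes was called higher or lower with TCEP, and most means lay slightly below those of the corn oil livers. Of the 33 measured genes 0 passed the adjusted threshold (0% of all genes), and their smallest adjusted p was 0.438 in limma. At an unadjusted p under 0.05, 0 were higher in TCEP (background 5.01% of all genes) and 4 were lower: the neurotrophin Ntf3, the BMP antagonist Chrdl1, the retinol-esterifying enzyme Lrat and the elastic fibre protein Fbln5. These 4 are 12.1% of the 33, against 4.19% of all genes tested that were lower by the same criterion. A lower mean with TCEP was seen in 28 of 33 genes (84.8%), against 49.1% of all genes, and the median difference was -0.11 over the 33 and 0.0048 over all genes. Among markers of other cells a lower mean was seen in 9 of 12 for hepatocytes, 8 of 11 for macrophages and 2 of 8 for cholangiocytes. In 7 of the 33 genes (21.2%) all TCEP values lay below all corn oil values, against 7.06% of all genes. In 0 of the 33 all TCEP values lay above, against 10.3%. Ntf3 and Chrdl1 were listed with their lower values in these data already known, so they do not bear on these shares. Without them 2 of 31 genes (6.45%) were lower at an unadjusted p under 0.05, 26 (83.9%) had a lower mean, 5 (16.1%) lay below all corn oil values and the median difference was -0.11. The 31 were also chosen with earlier results of these data known, so their shares describe the list and are not a test of it. Chrdl1 also met the background filter through the corn oil arrays alone, the group where it is high, while the other 32 genes were well above background on all 6 arrays. A filter on all 6 arrays, which removed Chrdl1 but not Ntf3, left 3 of 32 genes lower at an unadjusted p under 0.05, against 4.55% of the genes that met it.

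**Figure D1:**
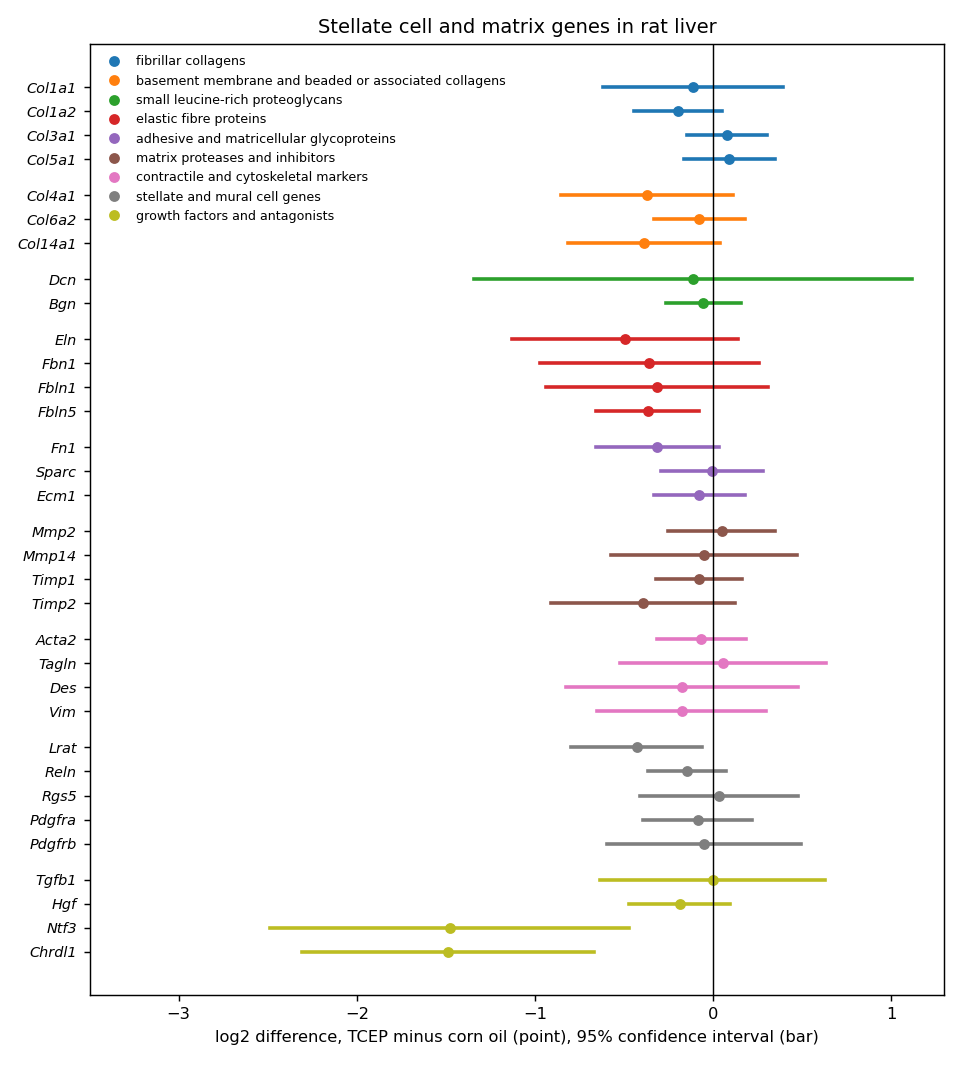
Log2 difference between the means of 3 TCEP and 3 corn oil arrays (points) with its 95% confidence interval from limma (bars) for 33 genes, coloured and ordered by role. The intervals of Ntf3, Chrdl1, Lrat and Fbln5 lie below 0, and those of the other genes include 0.

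The intervals bound how large an increase the spread of arrays within the groups leaves room for. The TCEP arrays shared 1 slide without a control, so an offset between slides is not part of these bounds. In 30 of the 33 genes the upper end of the 95% confidence interval of the TCEP to corn oil ratio was under 1.5, for each gene on its own. The exceptions were the proteoglycan gene Dcn, with an upper end of 2.17, the smooth muscle gene Tagln with 1.55 and the cytokine gene Tgfb1 with 1.55. The median standard error was 0.18 on the log2 scale for the 33 genes and 0.14 for all genes tested.

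**Figure D2:**
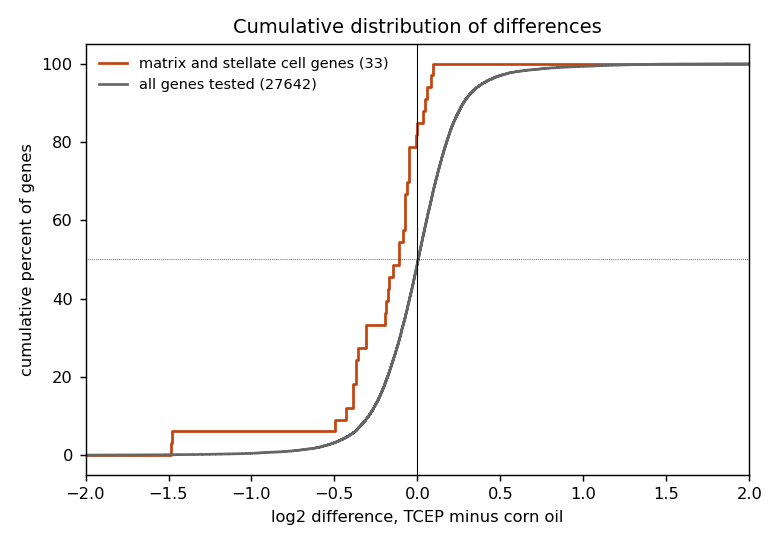
Cumulative percent of genes (vertical axis) by log2 difference, TCEP minus corn oil (horizontal axis), for the 33 measured genes and for all 27642 genes tested. The curve of the 33 genes crosses 50% at -0.11 and that of all genes at 0.0048.

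Promoter sequences were available in the RefSeq table of build GRCr8 for 28 of the 41 genes. Those of the 4 genes with an unadjusted p under 0.05 are shown together with those of Col1a2 and Acta2, whose transcripts are commonly read as signs of fibrosis. Each runs 5′ to 3′ from 250 bases before to 50 bases after an annotated start, and of 3 annotated starts of Ntf3 the one listed first is given. Capitals mark matches, on either strand, to TATANA (the core of a TATA box), CCAAT (bound by nuclear factor Y), TGANTCA (an AP-1 element) or GGGCGG (a GC box).
Ntf3, chr4:160670574-160670873, minus strand: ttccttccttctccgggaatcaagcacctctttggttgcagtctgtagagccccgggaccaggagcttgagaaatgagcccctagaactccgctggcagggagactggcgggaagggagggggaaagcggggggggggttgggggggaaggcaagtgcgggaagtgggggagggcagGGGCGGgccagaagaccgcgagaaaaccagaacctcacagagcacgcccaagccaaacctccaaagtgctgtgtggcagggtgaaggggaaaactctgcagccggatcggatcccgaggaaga
Chrdl1, chrX:111789612-111789911, minus strand: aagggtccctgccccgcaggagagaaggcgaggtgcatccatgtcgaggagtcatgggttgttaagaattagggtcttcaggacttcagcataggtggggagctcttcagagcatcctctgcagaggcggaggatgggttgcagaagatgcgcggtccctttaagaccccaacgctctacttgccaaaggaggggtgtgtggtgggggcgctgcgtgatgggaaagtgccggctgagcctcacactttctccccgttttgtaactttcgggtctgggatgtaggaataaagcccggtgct
Lrat, chr2:170571163-170571462, minus strand: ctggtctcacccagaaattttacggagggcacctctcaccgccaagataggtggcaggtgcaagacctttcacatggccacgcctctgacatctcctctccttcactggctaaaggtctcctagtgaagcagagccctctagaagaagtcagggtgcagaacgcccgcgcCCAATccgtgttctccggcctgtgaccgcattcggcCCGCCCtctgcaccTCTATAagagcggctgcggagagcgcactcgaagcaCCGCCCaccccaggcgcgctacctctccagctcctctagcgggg
Fbln5, chr6:126742657-126742956, minus strand: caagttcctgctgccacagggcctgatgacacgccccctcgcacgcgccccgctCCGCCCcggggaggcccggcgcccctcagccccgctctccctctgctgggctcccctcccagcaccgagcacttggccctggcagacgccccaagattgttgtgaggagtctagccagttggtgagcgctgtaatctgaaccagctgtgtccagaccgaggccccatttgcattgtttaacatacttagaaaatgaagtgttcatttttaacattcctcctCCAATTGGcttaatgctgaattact
Col1a2, chr4:33518307-33518606, plus strand: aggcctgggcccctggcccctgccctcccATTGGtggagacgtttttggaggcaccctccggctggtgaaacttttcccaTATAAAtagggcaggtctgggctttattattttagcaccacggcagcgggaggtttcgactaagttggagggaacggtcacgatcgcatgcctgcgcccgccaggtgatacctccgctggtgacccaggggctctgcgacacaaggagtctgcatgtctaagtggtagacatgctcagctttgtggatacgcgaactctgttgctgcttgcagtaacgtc
Acta2, chr1:241172454-241172753, minus strand: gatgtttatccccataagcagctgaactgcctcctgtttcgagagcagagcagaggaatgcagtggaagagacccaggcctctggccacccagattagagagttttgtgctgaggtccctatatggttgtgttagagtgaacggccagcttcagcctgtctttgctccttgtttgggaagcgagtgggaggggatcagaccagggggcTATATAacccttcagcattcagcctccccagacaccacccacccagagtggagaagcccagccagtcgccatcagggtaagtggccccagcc
Of 33469 promoters of the same length in that table, 26.5% hold TATANA, 37.5% CCAAT, 7.33% TGANTCA and 33.1% GGGCGG. The windows of Lrat, Col1a2 and Acta2 each hold 1 match to TATANA, and those of Ntf3, Chrdl1 and Fbln5 hold 0. The Lrat window also holds 1 CCAAT and 2 GGGCGG, that of Fbln5 2 overlapping CCAAT on opposite strands and 1 GGGCGG, that of Ntf3 1 GGGCGG and that of Col1a2 1 CCAAT. The Chrdl1 window matched none of the 4 motifs, and TGANTCA occurred in 0 of the 6. These are matches of letters in a window, and the arrays do not measure binding.

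Among the growth factors and their antagonists all 4 measured genes had a lower mean with TCEP. An unadjusted p under 0.05 was reached by Ntf3 and Chrdl1, the 2 genes listed with their values known, so this count restates what was known. Ntf3 encodes neurotrophin-3, a secreted ligand of the nerve growth factor family. Its values were -2.02, -3.10 and -2.59 in the TCEP livers, against -0.66, -0.72 and -1.90 in the corn oil livers. All 3 TCEP values lay below all 3 corn oil values, although the lowest corn oil value, replicate 3, came close to the highest TCEP value. The difference was -1.48 ± 0.42 (SE), a 2.78-fold lower mean, with an adjusted p of 0.481 in limma (unadjusted p = 0.011). Ntf3 has 1 probe on the array, well above background on all 6 arrays. Chrdl1 encodes chordin-like 1, a secreted protein that binds bone morphogenetic proteins and blocks their signalling. It read -4.95, -4.88 and -5.75 with TCEP, against -4.27, -3.25 and -3.60 with corn oil, again without overlap. This probe was dim: it was well above background on 1 of 3 TCEP arrays and on all 3 corn oil arrays. Its difference was -1.49 ± 0.34 (SE), with an adjusted p of 0.438 in limma (unadjusted p = 0.0041). It was -0.31 when normexp background correction with an added offset of 50 replaced the processed signal. For Ntf3 the same correction gave -1.05. An added offset by itself shrinks log2 differences of dim probes, and its part in these values was not tested.

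The best known fibrogenic cytokine had nearly equal means. Tgfb1, transforming growth factor beta 1, gave -2.30, -2.93 and -2.40 in TCEP livers, against -3.02, -2.33 and -2.27 in corn oil livers. The groups overlapped over nearly their whole range, and the difference of -0.0017 ± 0.26 (SE) had a 95% interval of 0.644 to 1.55 as a ratio. Its sign changed in 7 of 17 alternative settings. Hgf, hepatocyte growth factor, is made by stellate cells and acts on hepatocytes. Its values were -1.51, -1.26 and -1.32 with TCEP and -1.22, -1.03 and -1.27 with corn oil, which overlapped. The difference was -0.19 ± 0.12 (SE, adjusted p = 0.651, limma).

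Of the stellate and mural cell genes, Lrat had the largest difference. Lrat, lecithin retinol acyltransferase, forms the retinyl esters that stellate cells store. Its brightest probe read 1.83, 1.72 and 1.64 in TCEP livers, against 2.24, 2.37 and 1.87 in corn oil livers. The groups did not overlap, and the gap between corn oil replicate 3 and TCEP replicate 1 was small beside the spread of the corn oil values. The difference was -0.43 ± 0.15 (SE), a 1.35-fold lower mean, with an adjusted p of 0.523 in limma (unadjusted p = 0.029). A second, dimmer probe of Lrat gave -0.50 ± 0.14 (SE), also without overlap. Reln encodes reelin, a secreted glycoprotein made by stellate cells in rodent liver. It read 2.26, 2.14 and 2.28 with TCEP and 2.39, 2.41 and 2.32 with corn oil. The TCEP values again lay below the corn oil values, by little: -0.15 ± 0.09 (SE, adjusted p = 0.648, limma). All 3 probes of Reln had a lower mean with TCEP, between -0.21 and -0.10.

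The receptors for platelet-derived growth factor did not share that separation. Pdgfrb, the receptor that drives growth of activated stellate cells, had values of 0.65, 0.38 and 0.37 in TCEP livers, against 0.73, 0.79 and 0.026 in corn oil livers. Both the highest and the lowest of these 6 values were corn oil arrays, and the difference was -0.05 ± 0.22 (SE). Pdgfra, found on stellate cells and portal fibroblasts, differed by -0.086 ± 0.13, and Rgs5, a regulator of G-protein signalling in pericytes, by 0.033 ± 0.18 (SE). Their adjusted p-values in limma were 0.963, 0.852 and 0.97.

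The contractile and cytoskeletal markers of myofibroblasts were 4 of 4 measured and 0 of 4 had an unadjusted p under 0.05. Acta2, alpha smooth muscle actin, is the standard marker of activated stellate cells and also marks vascular smooth muscle. Its values were -1.68, -1.59 and -1.75 in TCEP livers, against -1.60, -1.73 and -1.50 in corn oil livers. All 6 lay within a narrow band, with a difference of -0.065 ± 0.10 (SE) and a 95% interval of the ratio of 0.804 to 1.14. Tagln, transgelin of smooth muscle, read -1.43, -1.12 and -2.07 with TCEP and -1.58, -1.65 and -1.56 with corn oil. Here the TCEP animals spread on both sides of the 3 corn oil values, and the difference was 0.056 ± 0.24 (SE). Des, the intermediate filament desmin of rat stellate and muscle cells, gave -2.27, -2.20 and -2.65 in TCEP livers, against -2.76, -1.81 and -2.03 in corn oil livers. The TCEP values lay inside the range of the corn oil values, with a difference of -0.17 ± 0.27 (SE). Vim, vimentin of mesenchymal cells, read -0.03, -0.10 and 0.071 with TCEP and -0.26, 0.26 and 0.47 with corn oil, and again the TCEP values fell inside the corn oil range (-0.17 ± 0.20, SE).

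**Figure D3:**
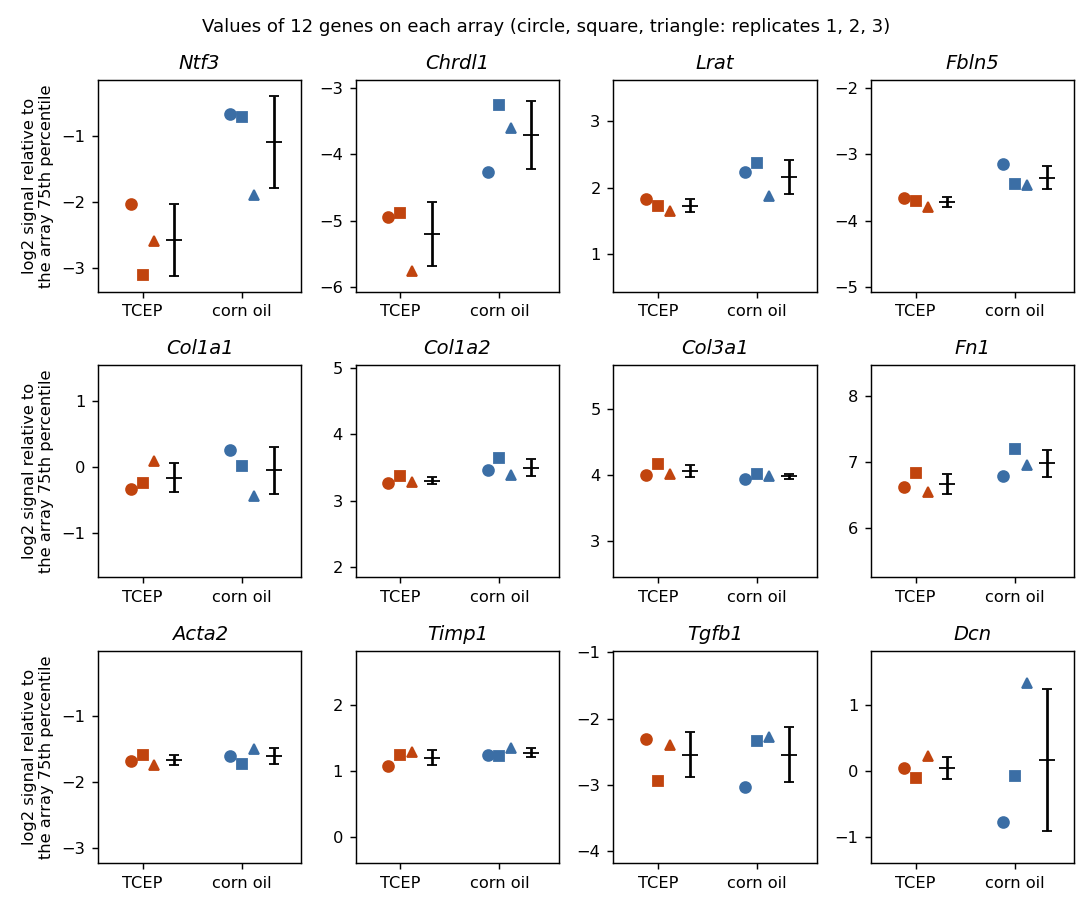
Log2 signal relative to the array's 75th percentile of 12 genes on each array, TCEP left and corn oil right, with the mean and SD of 3 arrays beside the points; every panel spans 3.2 log2 units. The groups separate for Ntf3, Chrdl1, Lrat, Fbln5 and Col1a2 and overlap for the other 7, and the corn oil values of Dcn spread most.

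Fibrillar collagens, the bulk of scar tissue, were close in both groups: 2 of the 4 measured had a higher and 2 a lower mean with TCEP. Col1a1 and Col1a2 encode the chains of type I collagen. Col1a1 read -0.33, -0.24 and 0.089 in TCEP livers, against 0.26, 0.025 and -0.43 in corn oil livers. The groups overlapped, the difference was -0.11 ± 0.21 (SE, adjusted p = 0.892, limma), and its 3 probes ranged from -0.19 to 0.066. The sign turned when corn oil replicate 1 was left out and also without TCEP replicate 3, where another probe became the brightest. Col1a2 gave 3.27, 3.36 and 3.27 with TCEP, against 3.46, 3.63 and 3.39 with corn oil, without overlap. Its difference of -0.19 ± 0.10 (SE, adjusted p = 0.603, limma) had a 95% interval of the ratio of 0.736 to 1.04, and its second probe gave -0.13. Col3a1, type III collagen, had values of 4.01, 4.17 and 4.02 in TCEP livers, against 3.95, 4.02 and 3.98 in corn oil livers. The groups overlapped, with TCEP replicate 2 the highest of the 6: the difference was 0.08 ± 0.092 (SE) and the interval of the ratio 0.905 to 1.23. Col5a1, type V collagen, which starts collagen fibrils, had 0.091 ± 0.11 (SE), and the mean over its 3 probes gave -0.041.

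Of the basement membrane and fibril-associated collagens all 3 measured genes had a lower mean and 0 had an unadjusted p under 0.05. Col14a1, a fibril-associated collagen, read 2.74, 2.52 and 2.79 in TCEP livers, against 2.92, 3.42 and 2.87 in corn oil livers, without overlap. Corn oil replicate 2 was the highest of the 6 by far. The difference was -0.39 ± 0.18 (SE, adjusted p = 0.561, limma), -0.21 without that array, and all 4 probes were lower, from -0.64 to -0.25. Col4a1, a chain of basement membrane collagen, gave 2.85, 3.57 and 2.99 with TCEP, against 3.49, 3.61 and 3.41 with corn oil. TCEP replicate 2 lay within the corn oil range and the others below it, so the groups overlapped (-0.37 ± 0.20, SE). The other 3 probes of Col4a1 gave differences from -0.14 to 0.017, and the mean over the 4 probes was -0.15. Col6a2, of the beaded filament collagen VI, had -0.076 ± 0.11 (SE).

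The small leucine-rich proteoglycans coat collagen fibrils and bind growth factors. Bgn, biglycan, read 6.10, 6.13 and 6.06 in TCEP livers, against 6.21, 6.16 and 6.08 in corn oil livers. The difference of -0.054 ± 0.087 (SE) lay within the spread of the corn oil animals. Dcn, decorin, gave 0.039, -0.12 and 0.22 with TCEP, against -0.76, -0.085 and 1.33 with corn oil. The corn oil values covered a range far wider than the TCEP values, and the difference was -0.11 ± 0.51 (SE). Leaving out corn oil replicate 3 gave 0.47, and leaving out corn oil replicate 1 gave -0.58. The summed linear signal of 11 macrophage markers, relative to the 75th percentile, was likewise lowest in corn oil replicate 1 and highest in corn oil replicate 3, though not in the same order over all 6 arrays: it was 151, 137 and 163 in TCEP livers, against 91.9, 181 and 235 in corn oil livers. Its part in the Dcn values was not tested. Lum, lumican, was well above background on none of the 6 arrays.

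All 4 elastic fibre genes had a lower mean with TCEP, with differences from -0.50 to -0.31. Fbln5, fibulin-5, which helps to assemble elastic fibres, read -3.66, -3.70 and -3.80 in TCEP livers, against -3.15, -3.45 and -3.46 in corn oil livers. The 3 TCEP values lay below all corn oil values, and the difference was -0.37 ± 0.12 (SE, adjusted p = 0.509, unadjusted p = 0.02, limma). With normexp background correction and its offset of 50 it was -0.064, for a probe far below the 75th percentile. Eln, elastin, had values of -0.62, -0.59 and -0.88 in TCEP livers, against 0.06, 0.12 and -0.80 in corn oil livers. Corn oil replicate 3 was as low as the TCEP arrays, so the groups overlapped. The difference was -0.50 ± 0.26 (SE), and 1 of its 3 probes went the other way at 0.073. Fbn1, fibrillin-1 of microfibrils, read 0.81, 0.65 and 0.30 with TCEP and 1.25, 1.14 and 0.43 with corn oil. Its pattern resembled that of Eln, with corn oil replicate 3 among the TCEP values (-0.36 ± 0.25, SE), and its second probe gave 0.15. Fbln1, fibulin-1, had -0.31 ± 0.26 (SE) and -0.012 without corn oil replicate 2.

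**Figure D4:**
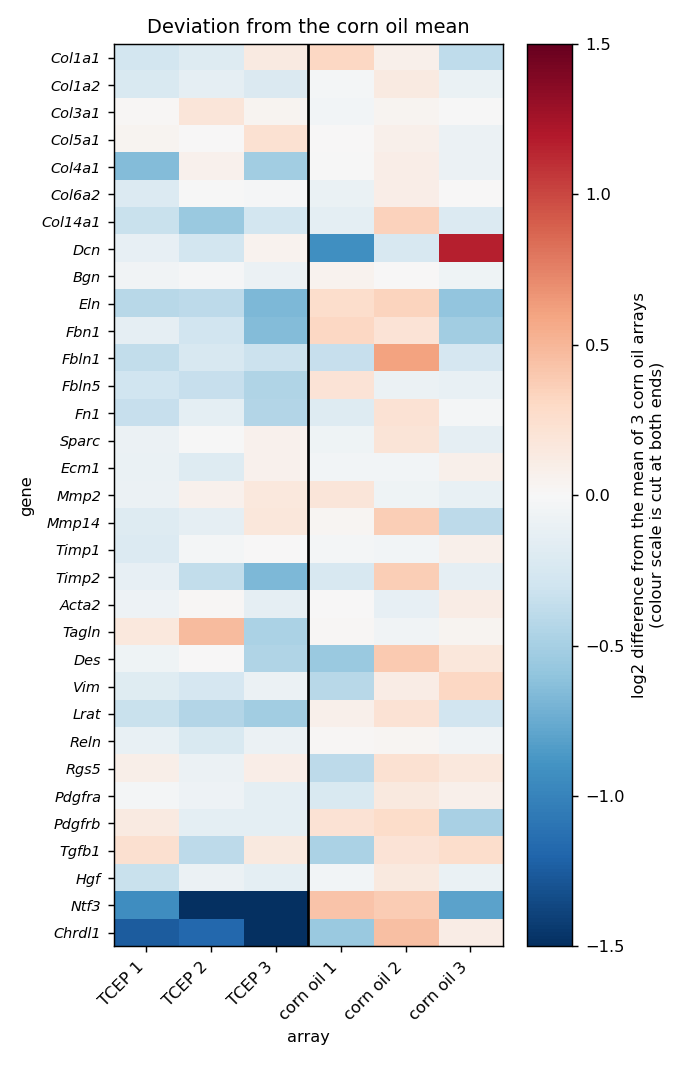
Difference of each array from the mean of the 3 corn oil arrays (colour, log2 units) for 33 genes (rows), with the TCEP arrays left of the line and the corn oil arrays right of it. Below the corn oil mean lay 27, 26 and 22 genes on TCEP replicates 1, 2 and 3, against 19, 7 and 21 genes on corn oil replicates 1, 2 and 3.

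Adhesive and matricellular glycoproteins were measured in 3 of 5 genes, all with a lower mean. Fn1, fibronectin, is made by hepatocytes for the plasma as well as by matrix-forming cells. It read 6.63, 6.83 and 6.54 in TCEP livers, against 6.79, 7.20 and 6.95 in corn oil livers. TCEP replicate 2 lay above corn oil replicate 1, so the groups touched. The difference was -0.31 ± 0.14 (SE, adjusted p = 0.565, limma), and its 3 probes agreed closely, from -0.31 to -0.28. The 12 hepatocyte markers, measured on the same arrays, had a lower mean in 9 and a median difference of -0.12, with a summed signal of 6690 to 7350 in TCEP livers and 7340 to 7650 in corn oil livers. Their part in the Fn1 values was not tested. Sparc, a collagen-binding matricellular protein, gave 4.75, 4.83 and 4.89 with TCEP and 4.76, 5.03 and 4.70 with corn oil. Its difference of -0.0069 ± 0.12 (SE) was far smaller than the spread within either group. Ecm1, a secreted protein that in mice restrains latent transforming growth factor beta, had -0.076 ± 0.11 (SE). Postn, periostin, and Thbs1, thrombospondin-1, were well above background on 0 of 6 arrays.

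Proteases and their inhibitors set how fast matrix is removed. Timp1, an inhibitor of matrix metalloproteinases that is widely read as a fibrosis marker, had values of 1.07, 1.25 and 1.28 in TCEP livers, against 1.25, 1.23 and 1.35 in corn oil livers. The groups overlapped, and the 95% interval of the ratio was 0.801 to 1.12 around a difference of -0.078 ± 0.10 (SE). Timp2 read 3.08, 2.83 and 2.53 with TCEP, against 2.97, 3.58 and 3.07 with corn oil, with corn oil replicate 2 highest (-0.39 ± 0.21, SE; -0.21 without that array). Mmp14, a membrane-bound collagenase that activates Mmp2, gave 4.57, 4.62 and 4.92 in TCEP livers and 4.78, 5.12 and 4.36 in corn oil livers. Its corn oil values enclosed all TCEP values (-0.051 ± 0.21, SE). Mmp2, gelatinase A, differed by 0.048 ± 0.12 (SE), and the mean over its 2 probes gave -0.028. Timp3 was well above background on 1 TCEP and 2 corn oil arrays and did not enter the main fit.

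Several probes were kept for 16 of the 33 genes, and in 10 of the 16 all probes of a gene gave the same direction. The other 6 were Col1a1, Col5a1, Col4a1, Eln, Fbn1 and Mmp2. Of Ntf3, Chrdl1, Fbln5 and Lrat only Lrat had a second probe, and Ntf3, Chrdl1 and Fbln5 rest on 1 probe each.

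**Figure D5:**
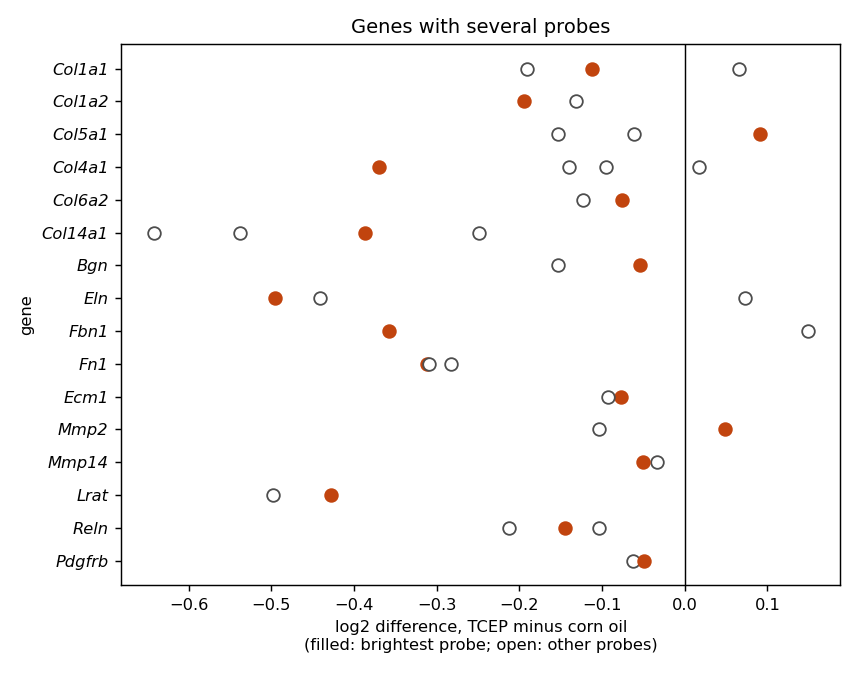
Log2 difference, TCEP minus corn oil, of each kept probe for the 16 genes with several probes; filled points are the brightest probe, open points the others. The probes of Lrat, Fn1 and Col14a1 all lie below -0.2, while those of Col1a1, Col5a1, Col4a1, Eln, Fbn1 and Mmp2 lie on both sides of 0.

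Other genes of the fibrogenic pathway were listed by function, with earlier results of these data known. They gave 0 members past the adjusted threshold in any list, in either direction (0% of all genes). Of 21 measured genes of the transforming growth factor beta pathway 15 had a lower mean, against 49.1% of all genes, with a median difference of -0.084. An unadjusted p under 0.05 in limma was reached by 3, all lower, against 4.19% of all genes lower by that criterion. Ltbp1, which holds the latent cytokine in the matrix, read 0.74, 0.77 and 0.75 in TCEP livers, against 1.03, 1.07 and 1.06 in corn oil livers. The groups were narrow and separate (-0.30 ± 0.082, SE, adjusted p = 0.477, limma). Ccn1, a matricellular protein induced by growth factors, gave -0.23, -0.77 and -1.09 with TCEP, against 0.86, -0.29 and 0.50 with corn oil, with a small overlap (-1.05 ± 0.35, SE, adjusted p = 0.509, limma). Tgfb3 had -0.77 ± 0.31 (SE), with corn oil replicate 1 at the level of the TCEP arrays.

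Among platelet-derived growth factor ligands and other profibrotic signals, 9 of 15 were measured, 6 with a lower and 3 with a higher mean. Spp1, osteopontin, is made by cholangiocytes and by activated macrophages and stellate cells. It read -1.66, -1.02 and -2.08 in TCEP livers, against -3.20, -2.45 and -2.24 in corn oil livers. All TCEP values were above all corn oil values (1.04 ± 0.35, SE, adjusted p = 0.513, limma). Pdgfa, a ligand of the receptor Pdgfra, gave 1.22, 1.37 and 1.16 with TCEP, against 0.88, 0.82 and 1.14 with corn oil, also without overlap (0.31 ± 0.12, SE, adjusted p = 0.537, limma). Ednrb, an endothelin receptor, was lower without overlap (-0.28 ± 0.11, SE). Over all genes, 10.3% were higher and 7.06% lower without overlap. At an unadjusted p under 0.05 in limma, 2 of the 9 were higher and 1 was lower, against 5.01% and 4.19% of all genes. Spp1 is itself among the 8 measured cholangiocyte markers and so enters both their count and their sum. These markers had a higher mean in 6, Spp1 included, and a lower mean in Krt7 and Cldn4. Their summed signal was 2.64 to 3.74 in TCEP livers, against 2.43 to 2.72 in corn oil livers. The part of these cells in the Spp1 values was not tested.

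Collagen processing enzymes had a lower mean in 8 of 13 measured genes, against 49.1% of all genes, with a median of -0.0048. P4ha2, a subunit of the prolyl hydroxylase that stabilises the collagen helix, had -0.39 ± 0.16 (SE, adjusted p = 0.537, limma), without overlap. Over all genes, 7.06% were lower without overlap. Of 6 measured basement membrane proteins 4 had a lower mean, and the bright Col18a1 and Agrn differed by -0.13 ± 0.093 and 0.035 ± 0.13 (SE). Only 7 of 19 further matrix proteases and inhibitors were measured, 4 of them lower. The matrix metalloproteinases Mmp3, Mmp8, Mmp9, Mmp12 and Mmp13 were among the 11 with a probe that did not meet the background filter. The bright members Mmp15 and Adamts1 had -0.15 ± 0.096 and -0.47 ± 0.23 (SE). Of 7 measured integrins, the receptors of cells for matrix, 5 had a lower mean, with Itga1 and Itgb5 at -0.11 ± 0.11 and -0.039 ± 0.12 (SE).

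Markers of the cells that make or surround the matrix gave 0 genes past the adjusted threshold (0% of all genes). A lower mean was seen in 49.1% of all genes. Of 14 further stellate cell markers, 11 had a lower mean and the median difference was -0.15. Ednrb, also among the profibrotic signals above, is one of the 11. Portal fibroblast markers had a lower mean in 5 of 10 and summed to 39.9 to 47.3 with TCEP, against 46.6 to 59.4 with corn oil. Of those with a higher mean, Ddr2 and Cd34 met the background filter through the TCEP arrays alone, the group where they are high. Vascular smooth muscle markers had a lower mean in 4 of 7 and summed to 50.5 to 54.9 with TCEP, against 47.0 to 54.6 with corn oil. Endothelial markers had a lower mean in 5 of 9 (59.1 to 65.7 with TCEP, against 53.6 to 67.8 with corn oil). Most of the sum came from 1 bright gene in each of these lists: Igfbp3 for portal fibroblasts, Notch3 for smooth muscle and Kdr for endothelium. The 4 measured markers of the mesothelial capsule (Krt19, also among the cholangiocyte markers, is one) all had a higher mean, with sums of 1.03 to 2.14 in TCEP livers and 1.05 to 1.53 in corn oil livers, and 0 of them had an unadjusted p under 0.05.

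The corn oil animals spread more than the TCEP animals. The SD of the 3 corn oil values was larger than that of the 3 TCEP values in 24 of 33 genes (72.7%), against 62.4% of all genes tested. The median SD of the 33 genes was 0.13 in TCEP livers and 0.21 in corn oil livers, and over all genes it was 0.14 in TCEP livers and 0.19 in corn oil livers. Since the corn oil arrays lay on 2 slides and the TCEP arrays on 1, spread between animals and between slides cannot be told apart. Corn oil replicate 2 was the highest of the 3 corn oil arrays in 20 of 33 genes (60.6%), against 30.9% of all genes tested, and the median of the 33 genes lay 0.14 above the corn oil mean on it. Within the first scan day, without this array, 24 of 34 measured genes had a lower mean, against 50.2% of all genes in that fit, and the median difference was -0.11. The added gene was Timp3, which like Chrdl1 met the filter through the corn oil arrays alone, the group where it is high. Its lower mean is therefore partly a product of the filter. In the same fit 4 genes were lower at an unadjusted p under 0.05, against 4.48% of all genes. In that fit Lrat differed by -0.32, Ntf3 by -1.29, Chrdl1 by -1.26 and Fbln5 by -0.41. The count of 4 was 2 without TCEP replicate 3, where the share of all genes was 2.87%, and 7 without corn oil replicate 3, where it was 5.8%. None of these counts left out Ntf3 and Chrdl1, which were listed with their lower values known. The counts may therefore partly restate what was known.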

How the data were processed

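The 6 arrays measured liver RNA labelled with Cy3. Per the file headers, the authors scanned them and extracted signals with Agilent Feature Extraction 10.7.1.1 (10.7 per the submitters' processing notes). The deposited scanner files hold background-subtracted intensity per spot and, for each spot, flags coded 0 or 1. A deposited value table gives a ratio, the processed signal over the 75th percentile of the same array, as read from the values, with column medians of 0.0953 to 0.104 and no centring of genes; the authors' own account of it is not given in the sources used here.

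For this report the intensity was put on a log2 scale, less the log2 of the 75th percentile of the array. The 1319 control spots were left out, 64 spots with outlier flags were set to missing (0 on the probes described here) and 5 saturated spots were kept. Probes below the scanner's well-above-background flag in some array of both groups were dropped, leaving 37043, and a gene was represented by its brightest kept probe. Symbols came from RefSeq GRCr8 by unversioned accession (27460 probes matched); the array design names an older build, so no probe coordinates are given, and the promoter windows are in GRCr8. The labels assign each array to its treatment and speak of separate animals. The group difference was fitted with limma 3.58.1 under R 4.3.3 (lmFit, then eBayes), and two-sided p-values were adjusted by Benjamini and Hochberg's method over all genes. The fit was tested on simulated data.

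The genes and lists were chosen with earlier results of these data known, Ntf3 and Chrdl1 among them, so the lists have no test. Genes were given array by array when they had an unadjusted p under 0.05, were 1 of the 2 brightest of their role group or are usual fibrosis readouts. From other lists, up to 3 genes with the smallest unadjusted p under 0.05 were named, otherwise the 2 brightest; cell type lists stand as counts, and 1 sum is not reported here. Alternatives were quantile normalization, median centring, normexp correction with an offset of 50 on median signals, the deposited table, other filters on dim probes, the mean over probes, robust eBayes with a trend, a random slide effect, a replicate block, flagged spots kept and each array left out.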

Additional observations from a re-analysis of the deposited data

How the results depend on the processing

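Each of the 17 alternatives gave 0 calls at an adjusted p of 0.05 in limma, over all genes and over the matrix and stellate cell genes. The smallest adjusted p over all genes lay between 0.06 (corn oil replicate 3 left out) and 0.743 (TCEP replicate 3 left out); unadjusted, 1644 to 3224 genes had p under 0.05. The median of the measured members was -0.17 with no filter on dim probes (37 genes) and -0.054 with centring on the array median, which moved the median of all genes from 0.0048 to 0.064 and their share with a lower mean from 49.1% to 37.9%; with no filter that share was 60%. With 1 array left out the median ran from -0.20 to -0.11 and the count with a lower mean from 24, Timp3 included, to 28. The count lower at an unadjusted p under 0.05 in limma ran from 2 (2.87% of all genes) to 7 (5.8%), against 4 (4.19%). Counted without Ntf3 and Chrdl1 it was 2. The sign of the difference turned in 1 or more alternatives for 13 of the 33 genes, and in 0 alternatives for 20. With centring on the array median the sign turned for Bgn (0.0051), Mmp14 (0.0084), Pdgfrb (0.0093), Sparc (0.052) and Tgfb1 (0.057), and with normexp for Bgn (0.012), Mmp14 (0.081), Mmp2 (-0.024), Rgs5 (-0.031), Sparc (0.084), Tagln (-0.018), Tgfb1 (0.0085) and Timp1 (0.0015). It also turned for Tgfb1 with quantile normalization (0.049) and slide as a random block (0.0028), and for Col5a1 (-0.041) and Mmp2 (-0.028) with the mean over probes. With 1 array left out the sign turned for Col1a1 (range -0.30 to 0.062), Dcn (-0.58 to 0.47), Des (-0.45 to 0.023), Mmp14 (-0.25 to 0.13), Mmp2 (-0.0097 to 0.14), Pdgfrb (-0.29 to 0.088), Rgs5 (-0.16 to 0.15), Sparc (-0.071 to 0.091), Tagln (-0.15 to 0.32) and Tgfb1 (-0.24 to 0.19). The cause was not tested. Same-numbered TCEP and corn oil replicates deviated from their group means with correlations of -0.048, -0.16 and -0.015 across genes. The numbers were therefore not taken as pairs. With a replicate block the median was -0.11 and 6 members were lower at an unadjusted p under 0.05 (3.38% of all genes). Ntf3 and Chrdl1 were not left out of that count. Chrdl1 gave no value with the filter on all 6 arrays. Dim signals limit Chrdl1 and Fbln5, and the counts at unadjusted p were added after the values were seen.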
